A study of Mus musculus with 12 samples.

Results

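The genes described here build and bind the actin cytoskeleton of mLTC-1 cells, an immortalized line of murine Leydig cells, the androgen-producing cells of the testis. They were chosen by symbol: 35 genes for actins, crosslinkers, tropomyosins, non-muscle myosin II, factors of filament turnover, the Arp2/3 complex and linkers to the membrane, with vimentin from the intermediate filaments. All 35 were among the 26214 gene symbols of the count table, and 27 of them passed the filter on low counts that left 2614 genes for testing. PolyA RNA was sequenced from tagmented libraries of 2 groups, 6 libraries of cells given 100 µM MSNBA and 6 libraries of cells given DMSO (control), each for 24 h. MSNBA is a benzodioxol amine that carries a methylsulfonyl-nitrophenyl group, and the series names it as inhibiting Glut5, a transporter of fructose. Both groups are the same line in serum-containing medium, and the labels name no genetic change. The labels do not say whether the replicates were separate cultures, so that the p-values rest on the spread among these libraries alone, which may be technical.

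Actin monomers join head to tail into filaments that grow mainly at the end facing the membrane. Profilin and thymosins hold the monomer pool, the Arp2/3 complex starts branches, capping protein stops growth and cofilin takes old filaments apart. Tropomyosins lie along filaments and set which partners bind, while alpha-actinins and filamin tie filaments together and myosin II pulls on them. In Leydig cells, actin filaments are known to take part in the delivery of cholesterol to mitochondria for steroid synthesis, and trophic hormones change cell shape through them.

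Total counts ran from 94179 to 657251 in the MSNBA libraries and from 59113 to 234225 in the control libraries, a 2.14-fold higher geometric mean in MSNBA. Controls 2 and 4, with 77030 and 79770 counts, held the highest thymosin levels described below. Without both, 7 of the 27 tested members were lower at an unadjusted p under 0.05: Actn4, Arpc1b, Pfn1, Ezr, Vim, Tagln2 and Cap1. Myl12b was higher at that level. Of the 3076 genes tested in that run, 281 had an unadjusted p under 0.05 in either direction. The share of lower genes alone is not given for that run. Control 2 was the lowest library for Pfn1, Vim and Tagln2, and control 4 for Cap1. Leaving both out therefore raised the control level of these genes by the choice of libraries. Values without both controls are given for genes whose estimate then moved most. The Leydig label was met by its markers, since all 7 of the list (Star, Cyp11a1, Cyp17a1, Hsd3b1, Insl3, Lhcgr and Nr5a1) passed the filter. Smooth muscle and peritubular markers, which include the muscle forms of actin machinery, summed to between 63.7 and 93.6 CPM (counts scaled to a common library total) in MSNBA libraries and between 54.98 and 102 CPM in control libraries over 6 genes, mostly from Smtn and Des. The muscle actin gene Acta2 had 5 counts in all MSNBA libraries together and 7 in all control libraries, and Myh11 had 5 counts in each group. Fibroblast markers summed to 16.7 to 127 CPM in MSNBA libraries and 34.2 to 143 CPM in control libraries over 6 genes. Macrophage markers summed to at most 17.4 CPM in MSNBA libraries and 35.7 CPM in control libraries, and endothelial markers to at most 12.2 CPM in MSNBA and 50.8 CPM in control, with Tie1 at 0 in every library. Sertoli cell markers summed to at most 79.7 CPM in MSNBA and 67.7 CPM in control, mostly from Dhh.

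Promoter sequences of 5 genes are shown because they carry the patterns that follow: Actn4, the single called member, Actg1 and Myl6, whose windows hold the serum response factor motif, and the thymosin genes Tmsb4x and Tmsb10, which varied together. Each is the RefSeq window of 300 bases on GRCm38.p6, 250 bases before a transcription start and 50 after it, read 5′ to 3′ on the gene's own strand, which is minus for all 5. RefSeq lists further starts for Myl6 and Tmsb10, and the window with the CArG box is shown for Myl6. The other Myl6 window, chr10:128493837-128494136, held neither a CArG box nor a GC box. Myl6 is annotated from 128490859 to 128493886, so that other window covers the 5′ end of the gene. The Myl6 window shown lies within the gene. The windows shown for Tmsb4x and Tmsb10 also lie within their annotated genes. Capitals mark the CArG box, the site of serum response factor, and the GC box GGGCGG, on either strand.

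Actn4 (chr7:28962283-28962582): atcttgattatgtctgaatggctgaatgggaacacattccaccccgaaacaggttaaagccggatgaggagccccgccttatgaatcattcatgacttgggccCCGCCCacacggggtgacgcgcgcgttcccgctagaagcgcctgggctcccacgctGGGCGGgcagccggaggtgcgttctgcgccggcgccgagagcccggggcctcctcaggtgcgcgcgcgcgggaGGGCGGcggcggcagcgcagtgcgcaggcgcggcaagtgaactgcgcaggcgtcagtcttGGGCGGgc

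Actg1 (chr11:120348446-120348745): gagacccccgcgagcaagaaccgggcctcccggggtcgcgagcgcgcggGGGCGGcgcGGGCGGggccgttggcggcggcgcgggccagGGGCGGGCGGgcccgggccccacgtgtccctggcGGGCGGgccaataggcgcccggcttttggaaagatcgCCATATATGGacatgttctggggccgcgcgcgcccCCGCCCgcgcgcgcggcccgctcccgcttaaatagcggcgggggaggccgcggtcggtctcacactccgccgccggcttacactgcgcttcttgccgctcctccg

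Myl6 (chr10:128492960-128493259): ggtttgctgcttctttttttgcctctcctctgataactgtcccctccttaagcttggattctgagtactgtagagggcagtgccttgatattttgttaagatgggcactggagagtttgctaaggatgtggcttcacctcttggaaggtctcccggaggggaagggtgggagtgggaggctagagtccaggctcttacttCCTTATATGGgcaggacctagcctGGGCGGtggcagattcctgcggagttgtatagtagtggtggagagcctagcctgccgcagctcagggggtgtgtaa

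Tmsb4x (chrX:167209169-167209468): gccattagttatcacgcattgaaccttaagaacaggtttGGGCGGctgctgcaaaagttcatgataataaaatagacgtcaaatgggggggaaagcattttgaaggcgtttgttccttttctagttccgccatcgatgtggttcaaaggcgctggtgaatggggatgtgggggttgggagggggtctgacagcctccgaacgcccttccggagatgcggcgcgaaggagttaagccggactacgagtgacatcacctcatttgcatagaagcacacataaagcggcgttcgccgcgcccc

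Tmsb10 (chr6:72958183-72958482): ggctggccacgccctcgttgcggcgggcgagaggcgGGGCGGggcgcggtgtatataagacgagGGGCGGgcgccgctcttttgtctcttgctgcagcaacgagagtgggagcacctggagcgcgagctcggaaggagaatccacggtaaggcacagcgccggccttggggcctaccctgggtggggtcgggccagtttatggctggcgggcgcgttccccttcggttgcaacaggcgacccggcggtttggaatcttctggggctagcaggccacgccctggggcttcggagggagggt

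Of the 35 genes, 33 had a promoter in the RefSeq table, Actb and Cotl1 being the exceptions. Both strands were searched, matches were allowed to overlap, and a gene counted once where any of its starts held the motif. A CArG box was found in the windows of 3 of these genes, Actg1, Myl6 and Vcl, against 1.81% of the 27025 genes with a promoter. It lay 90 bases before the start in Actg1 and 227 bases before it in Vcl. In Myl6 it lay 50 bases before the start that falls within the gene. A GC box was found for 28 of the 33 genes, against 38.2% of all genes, and the TATA box TATAAA for 2 of the 33, Myh9 and Vim, against 15.7% of all genes. The Actn4 window held 4 GC boxes and no CArG box. The shares are over all 27025 genes with a promoter, whether or not they were tested here, and shares over tested genes were not computed. These are matches of letters in these windows and say nothing of binding.

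The single comparison of the design set MSNBA against control in the whole table with the edgeR quasi-likelihood test, with p-values adjusted over all 2614 tested genes. One member passed at an adjusted p of 0.05, Actn4, which encodes the non-muscle crosslinker alpha-actinin-4, and it was lower in MSNBA. Of all tested genes, 0.0765% were called lower and 0% higher. This gene was in the set because its call was already known, so that the call is a description and no support for the set. At an unadjusted p under 0.05, 4 of the 27 tested members were lower (Actn4, Arpc1b, Pfn1 and Ezr), against 4.78% of all tested genes, and 1 was higher (Myl12b), against 4.17% of all tested genes, which is 8.95% in either direction. The groups did not overlap in 0 of the 27 members, against 0.421% of all tested genes that lay lower throughout and 0.23% that lay higher. By direction alone, 20 of the 27 log2 fold changes were below 0 and 7 above, whereas 51.5% of all tested genes were below 0. The median log2 fold change was -0.19 for the tested members and -0.0082 for all tested genes. In a bulk sample, fewer cells that express a gene and less RNA per cell cannot be told apart.

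**Figure D1:**
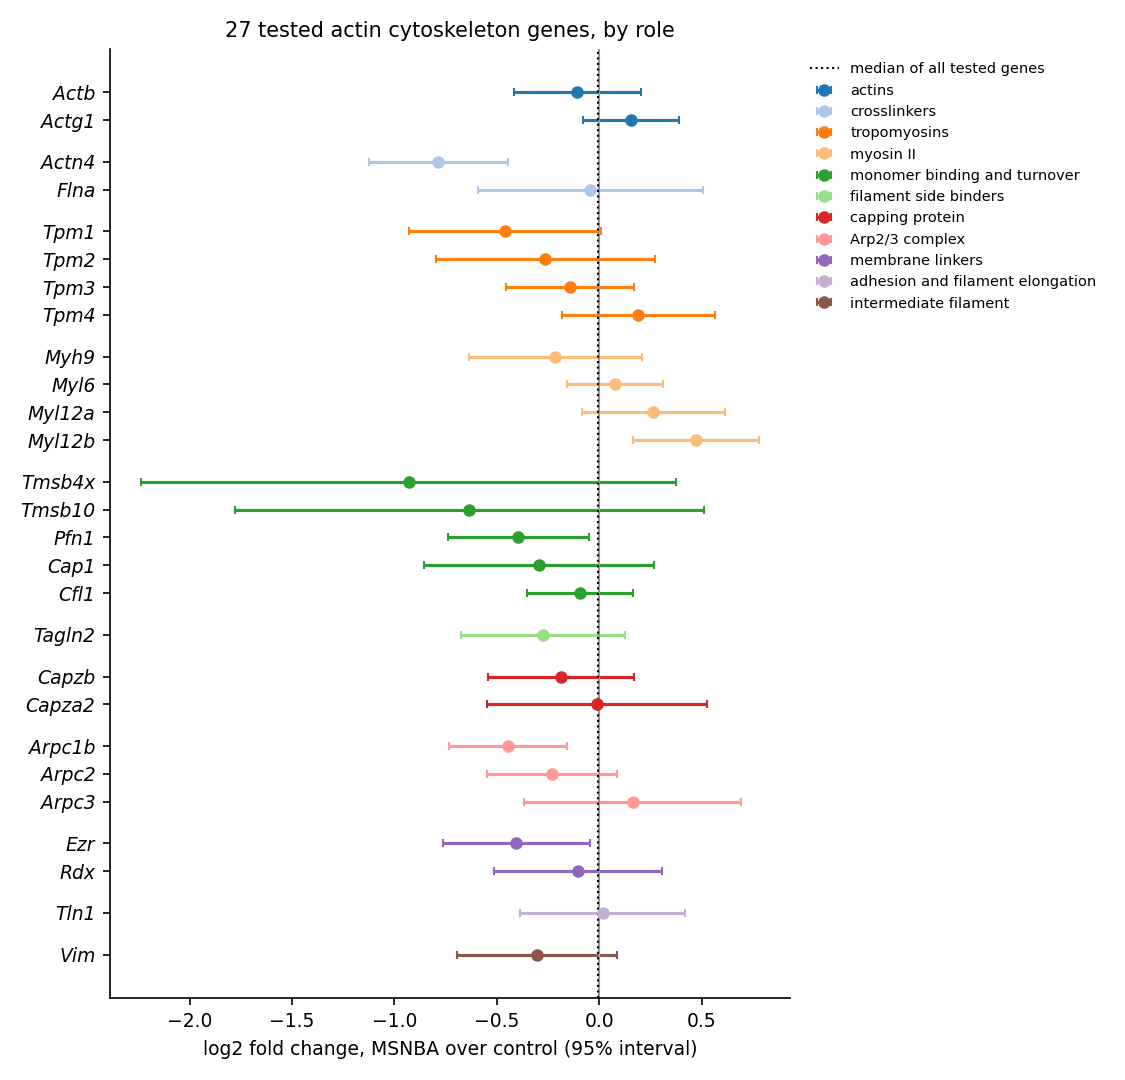
Log2 fold change of MSNBA over control (horizontal axis) for the 27 tested actin cytoskeleton genes, grouped by role. Points are edgeR estimates, bars are 95% intervals, and the dotted line is the median of all tested genes at -0.0082. The interval of Actn4 lies farthest from 0, and the widest intervals are those of Tmsb4x and Tmsb10.

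Actn4 lies on mouse chromosome 7 from 28893248 to 28962351 (mm10). It measured 259, 278, 268, 407, 351 and 231 normalized CPM in MSNBA replicates 1 to 6, against 381, 381, 624, 449, 585 and 617 normalized CPM in control replicates 1 to 6. All but 1 of the MSNBA libraries lay below every control library, and MSNBA 4 overlapped the lowest controls, 1 and 2. At least 5 of 6 MSNBA libraries lay below all controls in 1.68% of all tested genes. The mean was 299 ± 66.2 in MSNBA and 506 ± 116 in control (SD, n = 6 each). This is a fold change of 0.580 (95% interval 0.458 to 0.734), -0.79 on the log2 scale (SE 0.17, adjusted p = 0.0409 by edgeR). On the same 2614 genes, DESeq2 gave Actn4 an adjusted p of 0.0503 (unadjusted p = 3.56e-05), a run added after the data were seen, and limma-voom gave 0.119. With its own filtering DESeq2 tested 19572 genes and gave an adjusted p of 0.852 (unadjusted p = 5.64e-05). With 1 library left out in turn, edgeR kept Actn4 past the threshold in 3 of 12 runs, those without MSNBA 4, control 1 or control 2, and the adjusted p ran from 0.0104 to 0.201.

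Library depth differed between the groups, so the level of Actn4 is given here beside it. Over full library totals, MSNBA 1, with the most counts of any library, held 141 Actn4 counts, a level of 215 CPM (Wilson 95% interval 182 to 253). Control 1, the deepest control with 234225 counts, held 72 counts, or 307 CPM (244 to 387). Control 5, the shallowest library, held 27 counts, or 457 CPM (314 to 664). The intervals of MSNBA 1 and control 1 overlap, and that of control 5 lies above the interval of MSNBA 1 and overlaps that of control 1. The slope of Actn4 on log2 depth, with treatment in the model, was -0.16 per doubling (SE 0.09, unadjusted p = 0.0871, adjusted p = 0.422 by edgeR). The treatment term for Actn4 was then -0.60 (SE 0.19, unadjusted p = 0.00192, adjusted p = 0.388). Of the 27 members, 4 had a treatment term at an unadjusted p under 0.05 in that model (Actn4, Arpc1b, Actb and Myh9), against 8.88% of all tested genes. For Actb it was -0.30 (SE 0.14, unadjusted p = 0.0339, adjusted p = 0.533). Intervals cover counting error only.

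**Figure D2:**
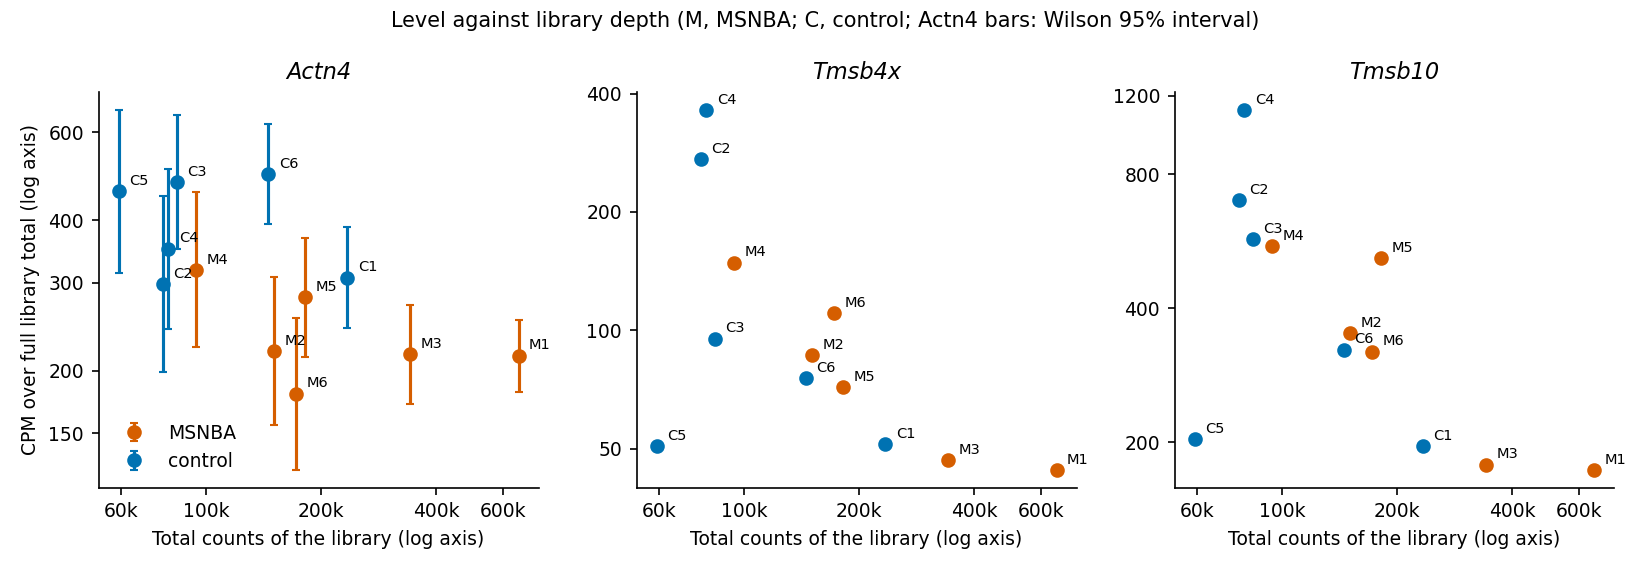
CPM over the full library total (log axis) against the total counts of the library (log axis) for Actn4, Tmsb4x and Tmsb10; each point is 1 library, M for MSNBA and C for control. MSNBA 1 and 3 sit furthest right, and MSNBA 4 lies among the controls for Actn4, while the 2 thymosin genes are highest in controls 4 and 2 and lowest in MSNBA 1. Bars for Actn4 are Wilson 95% intervals.

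The paralog Actn1, on chromosome 12 from 80167542 to 80260420, encodes alpha-actinin-1, which crosslinks filaments in stress fibres and adhesions of many cell types. It had 1, 0, 1, 1, 1 and 1 counts in MSNBA replicates 1 to 6, against 1, 0, 1, 0, 0 and 0 counts in control replicates 1 to 6, and was not tested. Pooled over libraries, that is 5 counts in MSNBA, or 3.13 CPM (exact Poisson 95% interval 1.02 to 7.3), and 2 counts in control, or 2.94 CPM (0.356 to 10.6). Actn4 therefore made up 98.6% of the summed counts of both genes in MSNBA and 99.2% in control, counts that were not divided by gene length. The third crosslinker, filamin A (Flna), which joins filaments into networks and links them to integrins, measured 83.2 ± 24.5 normalized CPM in MSNBA and 90.1 ± 48.2 in control (SD, n = 6 each). The estimate by edgeR was -0.04 on the log2 scale (SE 0.27, adjusted p = 0.981), with an interval from 0.664-fold to 1.42-fold. The difference between the effects on Actn4 and Flna was not tested.

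The cytoplasmic actin genes did not pass. Actb, which encodes beta-actin, measured 5267, 4362, 4562, 4133, 3222 and 3213 normalized CPM in MSNBA replicates 1 to 6, against 5399.8, 3176, 5755, 3784, 4289.8 and 4260.2 in control replicates 1 to 6. Actg1, which encodes gamma-actin, measured 1323, 1477, 1422, 1233, 1418 and 1133 normalized CPM in MSNBA, against 1095, 959.6, 1138, 1074, 1495 and 1466 in control. For both genes the ranges of the groups overlap almost fully. The log2 fold change was -0.11 for Actb (SE 0.15, 0.749-fold to 1.15-fold, adjusted p = 0.867) and 0.15 for Actg1 (SE 0.12, 0.946-fold to 1.31-fold, adjusted p = 0.706), both by edgeR. Within the pair, Actb held 75.2% ± 3.52 of the counts in MSNBA and 78.3% ± 4.13 in control (SD, n = 6 each), a share in which scaling factors cancel. The coding sequences of these genes are known to be very similar, and the part of shared reads in this split was not tested.

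Tropomyosins differed among themselves in direction, without a call. Tpm1, a main tropomyosin of stress fibres, measured 105 ± 15.8 normalized CPM in MSNBA and 159.5 ± 55.1 in control, which edgeR put at -0.46 on the log2 scale (SE 0.23, unadjusted p = 0.0539, adjusted p = 0.555). Tpm2 measured 75.2 ± 16.1 in MSNBA and 90.3 ± 34.2 in control, at -0.26 (SE 0.26), and Tpm3 measured 369 ± 46.4 in MSNBA and 411.5 ± 74.7 in control, at -0.14 (SE 0.15). Tpm4 alone lay above 0, at 0.19 (SE 0.18), with 284.5 ± 39.8 in MSNBA and 248 ± 78.4 in control. Tpm2, Tpm3 and Tpm4 encode further non-muscle forms and had adjusted p-values of 0.798, 0.824 and 0.787 by edgeR. As a share of the summed counts of the 4 genes, Tpm4 held 29.5% to 36.4% in MSNBA libraries and 16.9% to 41.4% in control libraries. Its mean share was 34.0% ± 2.6 in MSNBA and 27.4% ± 8.1 in control (SD, n = 6 each). Tpm1 held 12.7% ± 2.24 in MSNBA and 17.6% ± 5.92 in control. The control libraries spread more widely than the MSNBA libraries in both shares. The family had 1118 counts over the MSNBA libraries and 484 over the control libraries, and the part of counting error in this difference of spread was not tested.

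**Figure D3:**
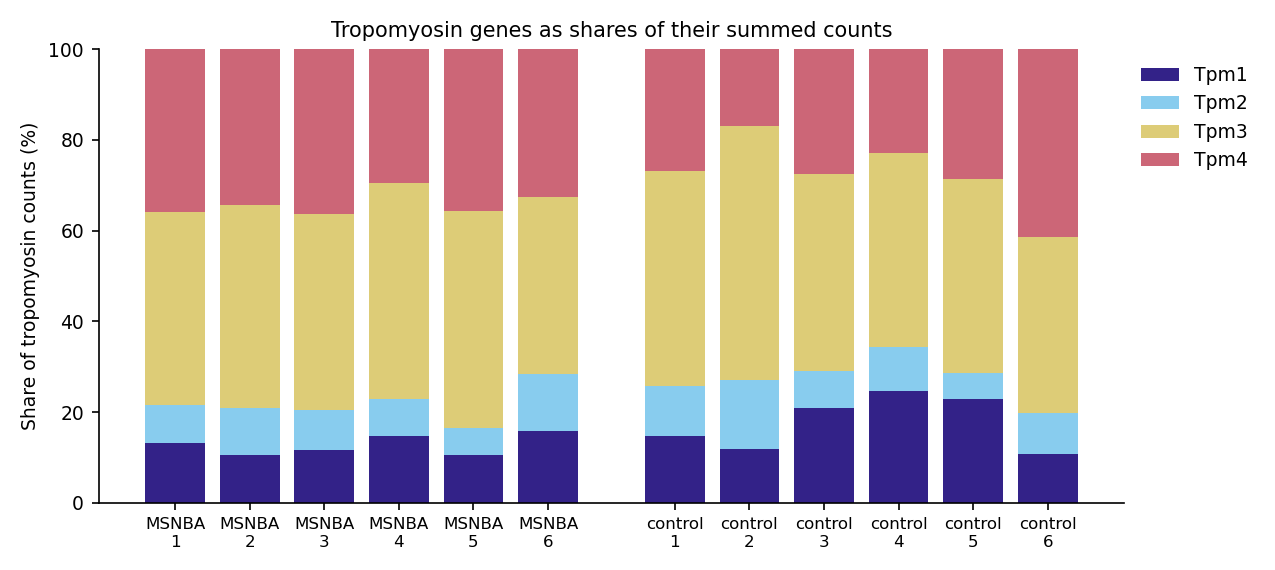
Share of the summed tropomyosin counts (vertical axis, percent) taken by Tpm1, Tpm2, Tpm3 and Tpm4 in each of the 6 MSNBA and 6 control libraries. Tpm4 lies between 29.5% and 36.4% in MSNBA libraries, and controls 2 and 6 hold the lowest and highest shares, 16.9% and 41.4%.

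Non-muscle myosin II is a hexamer of heavy chains, essential light chains and regulatory light chains. The regulatory light chain gene Myl12b had the largest positive log2 fold change of the members. It measured 512, 397, 515, 474, 379 and 439.8 normalized CPM in MSNBA replicates 1 to 6, against 381, 281, 296, 321, 325 and 334 in control replicates 1 to 6. All MSNBA libraries but MSNBA 5 lay above every control, and control 1 was the highest control. At least 5 of 6 MSNBA libraries lay above all controls in 2.03% of all tested genes. The mean was 453 ± 57.7 in MSNBA and 323 ± 34.4 in control (SD, n = 6 each), which edgeR put at 0.47 on the log2 scale (SE 0.15, unadjusted p = 0.0034, adjusted p = 0.228). With depth in the model the value was 0.32 (SE 0.17, unadjusted p = 0.0704).

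The other regulatory light chain gene, Myl12a, had an edgeR estimate of 0.26 on the log2 scale (SE 0.17, adjusted p = 0.639), with 330.0 ± 47.6 normalized CPM in MSNBA and 278 ± 66.7 in control. The genes are neighbours on chromosome 17, Myl12b from 70973963 to 70990516 and Myl12a from 70993793 to 71002533, and encode nearly identical proteins. How reads that match both genes entered these counts was not tested. Myl12a took 42.1% ± 4.27 of the counts of the pair in MSNBA and 45.7% ± 7.01 in control (SD, n = 6 each), ranges that overlap. The essential light chain gene Myl6 measured 1873 ± 278 in MSNBA and 1792 ± 331 in control. Its CArG box is in the window within the gene shown above, not in the window at its 5′ end. The estimate was 0.08 (SE 0.12, adjusted p = 0.886 by edgeR). The heavy chain gene Myh9 measured 195 ± 49.6 in MSNBA and 233 ± 104 in control, at -0.22 (SE 0.21, adjusted p = 0.788), and at -0.40 (SE 0.21, unadjusted p = 0.0652) without controls 2 and 4. With depth in the model Myh9 stood at -0.47 (SE 0.24, unadjusted p = 0.0485, adjusted p = 0.554). The second heavy chain gene, Myh10, had 5 counts in MSNBA, 4 of them in MSNBA 1, and 0 in control, where a floor of 3 counts over the group is 4.41 CPM, above the pooled MSNBA level of 3.13 CPM.

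Among proteins that bind monomers, profilin 1 delivers actin to growing ends. Its gene Pfn1 measured 238, 278, 232, 312, 317 and 276 normalized CPM in MSNBA replicates 1 to 6, against 344, 232, 452, 417, 282 and 369 in control replicates 1 to 6. Control 2 lay as low as the lowest MSNBA library, and no MSNBA library lay below all controls. The mean was 276 ± 35.4 in MSNBA and 349 ± 82.5 in control, which edgeR put at -0.39 on the log2 scale (SE 0.17, unadjusted p = 0.0255, adjusted p = 0.446). With depth in the model it was -0.29 (SE 0.19, unadjusted p = 0.132). Cofilin (Cfl1), which severs filaments, measured 585 ± 80.8 in MSNBA and 613 ± 34.5 in control, at -0.09 (SE 0.13, adjusted p = 0.867 by edgeR). The gene of cyclase-associated protein 1, Cap1, whose product recycles monomers from cofilin, measured 96.9 ± 27.7 in MSNBA and 121 ± 83.4 in control, at -0.29 (SE 0.28, adjusted p = 0.787). Without controls 2 and 4 Cap1 stood at -0.55 (SE 0.26, unadjusted p = 0.0392, adjusted p = 0.52 by edgeR). Control 4 was the lowest library for Cap1.

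**Figure D4:**
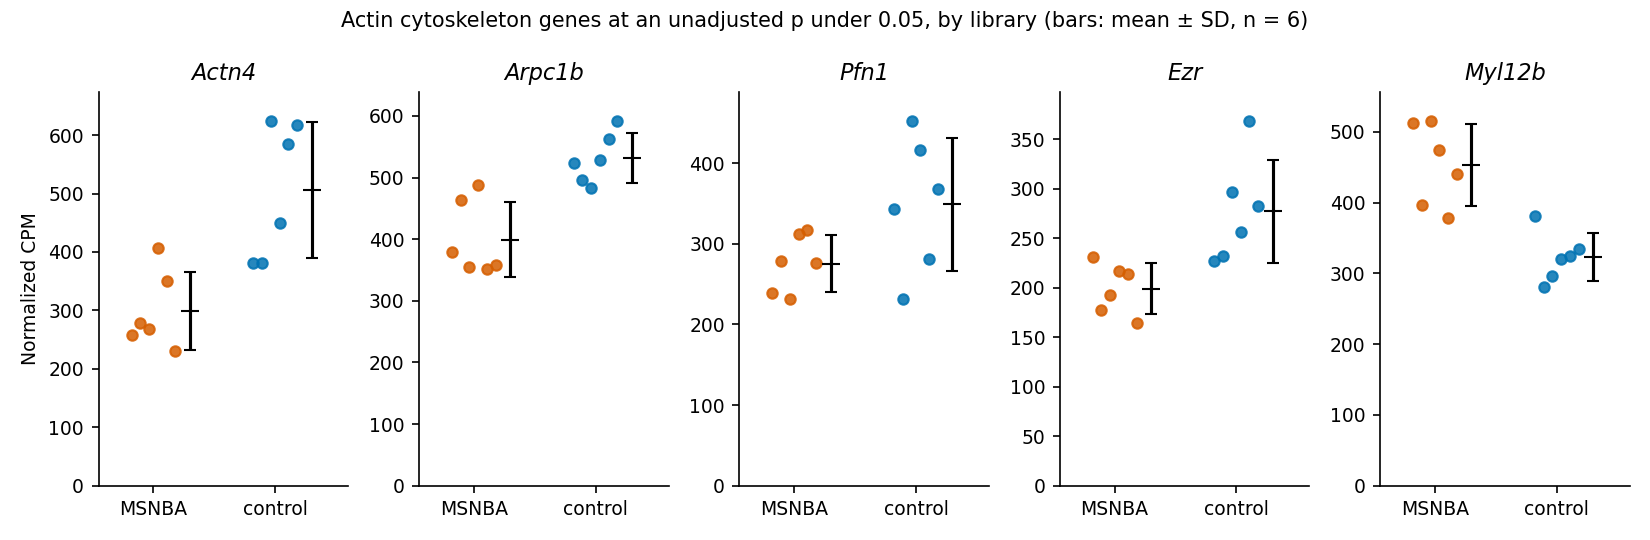
Normalized CPM (vertical axis, from 0) in each of the 6 MSNBA and 6 control libraries for the 5 members at an unadjusted p under 0.05; bars are mean ± SD. Actn4, Arpc1b and Ezr have 5 of 6 MSNBA libraries below all controls, Myl12b has 5 of 6 above them, and Pfn1 overlaps throughout.

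Thymosins sequester monomers, and by the spread that edgeR estimates between libraries their genes were the most variable members. Tmsb4x, with the largest negative log2 fold change, measured 53.2, 109.7, 58.0, 189.7, 89.5 and 142 normalized CPM in MSNBA replicates 1 to 6, against 63.5, 347, 125, 465, 65.0 and 94.3 in control replicates 1 to 6. Tmsb10 measured 209, 447, 221, 705, 647 and 410.0 in MSNBA, against 243, 893, 749, 1427, 260.0 and 403 in control. Controls 4 and 2 were the highest for both genes and MSNBA 1 the lowest, and within each group the levels spread over more than the difference between groups. The highest library exceeded the lowest 8.74-fold for Tmsb4x and 6.82-fold for Tmsb10, and 16.2-fold for Cap1, whose lowest library was control 4. Yet Tmsb4x held between 12.1% and 28% of the counts of the pair in every library, with a mean of 19.97% ± 4.38 in MSNBA and 21.1% ± 4.73 in control (SD, n = 6 each), a share computed after the data were seen. The biological coefficient of variation, edgeR's estimate of the relative spread between libraries beyond counting, was 0.617 for Tmsb4x and 0.567 for Tmsb10, and ranked 3 and 6 among the 2614 tested genes, whose median was 0.130.

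The log2 fold change was -0.93 for Tmsb4x (SE 0.59, 0.212-fold to 1.3-fold, adjusted p = 0.644) and -0.64 for Tmsb10 (SE 0.52, 0.291-fold to 1.42-fold, adjusted p = 0.757), both by edgeR. With depth in the model the values were 0.028 for Tmsb4x and 0.21 for Tmsb10. Without controls 2 and 4 they were 0.053 for Tmsb4x and 0.025 for Tmsb10. These controls held the highest values of both genes, so leaving them out had to raise both estimates. The slope on log2 depth was -0.77 per doubling for Tmsb4x (SE 0.20, adjusted p = 0.0368) and -0.74 for Tmsb10 (SE 0.21, adjusted p = 0.109), with treatment in the model, by edgeR. Control 5, the shallowest library, lay near the low end for both genes, on 3 Tmsb4x counts and 12 Tmsb10 counts. Of the 27 tested members, Tmsb4x alone had a slope past an adjusted p of 0.05, against 4.09% of all tested genes. At an unadjusted p under 0.05 it was joined by Tmsb10, also lower with depth, against 9.41% of all tested genes, and by Actb, higher with depth (0.18 per doubling), against 5.59% of all tested genes, which is 15% in either direction. Both thymosin genes have many processed pseudogenes, and their part in these counts was not tested.

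The Arp2/3 complex, which starts branched filaments, was represented by 4 members. Arpc1b, a subunit of its core, measured 379.8, 464, 355, 488, 351 and 358 normalized CPM in MSNBA replicates 1 to 6, against 524, 496, 483, 529, 563 and 591 in control replicates 1 to 6. All but 1 MSNBA library, MSNBA 4, lay below every control, and control 3 was the lowest control. The mean was 399 ± 60.6 in MSNBA and 531 ± 40.5 in control (SD, n = 6 each), which edgeR put at -0.45 on the log2 scale (SE 0.14, unadjusted p = 0.00313, adjusted p = 0.228). With depth in the model the value was -0.39 (SE 0.16, unadjusted p = 0.0197, adjusted p = 0.486). Arpc2, which forms the centre of the complex with Arpc4, measured 327 ± 35.1 in MSNBA and 385 ± 62.1 in control, at -0.23 (SE 0.16, adjusted p = 0.651 by edgeR). Arpc3 measured 102 ± 21.8 in MSNBA and 103 ± 52.7 in control, at 0.16 (SE 0.26, adjusted p = 0.898), so that its mean and its fitted estimate differ in sign. Without controls 2 and 4 the estimate for Arpc3 was 0.53 (SE 0.29, unadjusted p = 0.0733). Arpc5 had 83 counts over the MSNBA libraries, or 51.9 CPM (exact Poisson 95% interval 41.4 to 64.4), and 37 over the control libraries, or 54.4 CPM (38.3 to 75.0), too few to be tested.

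Summed over these 4 subunits on full library totals, the level ran from 639 to 765 CPM in MSNBA libraries and from 818 to 928 CPM in control libraries, and the groups did not overlap. Without Arpc1b the other 3 summed to 353 to 447 CPM in MSNBA and 392 to 514 CPM in control, and the groups overlapped. Over all 9 genes for subunits, the other 5 being Actr2, Actr3, Arpc1a, Arpc4 and Arpc5l, the sum ran from 1024 to 1275 CPM in MSNBA and from 1207 to 1479 CPM in control. The groups overlapped there too, with control 2 the lowest control. Arpc4, which was not a member, stood at -0.44 (SE 0.21, unadjusted p = 0.0389, adjusted p = 0.508 by edgeR) and Arpc5l at -0.21 (SE 0.21). Arpc1a, the paralog of Arpc1b, had 99 counts in MSNBA, or 61.9 CPM, and 43 in control, or 63.3 CPM, and was not tested. These sums were formed after the members' values were known and were given no test. In like sums for each other role of the members, the groups overlapped. For the crosslinkers the sum ran from 232 to 372 CPM in MSNBA and from 338 to 592 CPM in control.

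Capping protein closes the growing end of filaments. Its beta subunit gene Capzb measured 252.5 ± 43.7 in MSNBA and 272 ± 57.1 in control, at -0.19 on the log2 scale (SE 0.18, adjusted p = 0.787 by edgeR). The alpha subunit gene Capza2 measured 93.5 ± 36.3 in MSNBA and 89.4 ± 29.2 in control, at -0.01 (SE 0.27, adjusted p = 0.994), so that its means and its estimate differ in sign. Transgelin 2 (Tagln2), which binds filament sides, measured 258 ± 75.2 in MSNBA and 296 ± 99.7 in control, at -0.28 (SE 0.20, adjusted p = 0.687). Without controls 2 and 4 Tagln2 stood at -0.48 (SE 0.19, unadjusted p = 0.0153, adjusted p = 0.449 by edgeR). Control 2 was the lowest library for Tagln2. Coactosin-like protein 1 (Cotl1), another filament binder, had 19 counts over the MSNBA libraries and 17 over the control libraries. That is 11.9 CPM (exact Poisson 95% interval 7.16 to 18.6) in MSNBA and 25.01 CPM (14.6 to 40.0) in control, intervals that overlap.

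Ezrin, radixin and moesin link filaments to membrane proteins. The ezrin gene Ezr measured 231, 177, 192, 217, 213 and 164 normalized CPM in MSNBA replicates 1 to 6, against 227, 232, 296, 257, 368 and 283 in control replicates 1 to 6. All but 1 MSNBA library, MSNBA 1, lay below every control, and control 5 was the highest. The mean was 199 ± 25.7 in MSNBA and 277 ± 52.3 in control (SD, n = 6 each), which edgeR put at -0.40 on the log2 scale (SE 0.18, unadjusted p = 0.0275, adjusted p = 0.452). With depth in the model it was -0.41 (SE 0.22, unadjusted p = 0.0594). The radixin gene Rdx measured 159.3 ± 39.9 in MSNBA and 177 ± 34.98 in control, at -0.10 (SE 0.20, adjusted p = 0.914 by edgeR). The moesin gene Msn, below the filter, had a pooled level of 50.7 CPM in MSNBA (81 counts, exact Poisson 95% interval 40.2 to 63.0) and 45.6 CPM in control (31 counts, 31.0 to 64.7).

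At adhesions, talin (Tln1) ties integrins to actin, vinculin (Vcl) strengthens that tie, and zyxin (Zyx) and VASP (Vasp) promote filament growth and repair. Tln1 measured 185.5 ± 27.7 normalized CPM in MSNBA and 179.8 ± 55.1 in control, at 0.02 on the log2 scale (SE 0.20, 0.765-fold to 1.34-fold, adjusted p = 0.994 by edgeR). Vcl had 43 counts over the MSNBA libraries, or 26.9 CPM (exact Poisson 95% interval 19.5 to 36.2), and 30 over the control libraries, or 44.1 CPM (29.8 to 63.0). Vasp had 77 counts over the MSNBA libraries, or 48.2 CPM (38.0 to 60.2), and 35 over the control libraries, or 51.5 CPM (35.9 to 71.6). Zyx had 5 counts in MSNBA and 2 in control. The differences of the 8 members below the filter were not tested. The vimentin gene Vim, the intermediate filament member, measured 248 to 352 normalized CPM in MSNBA libraries with a median of 312, against 99.3 to 520.0 in control libraries with a median of 402. Control 2, with 6 counts of this gene, held the lowest value of all libraries, and the edgeR estimate was -0.30 on the log2 scale (SE 0.19, unadjusted p = 0.123, adjusted p = 0.632). Without control 2 it was -0.47 (SE 0.16, unadjusted p = 0.00554, adjusted p = 0.332), and without controls 2 and 4 -0.48 (SE 0.17, unadjusted p = 0.00706, adjusted p = 0.334).

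Beyond the members, 176 symbols of actin regulators, integrin adhesions, serum response factor and YAP targets, microtubules, septins and other intermediate filaments were listed with earlier results of these data known. The table held 166 of them and 48 passed the filter. Of these 48, 0 passed at an adjusted p of 0.05 by edgeR, DESeq2 or limma-voom. At an unadjusted p under 0.05 by edgeR 2 were lower, Arpc4 and Rhoa, and 0 were higher, against 4.78% and 4.17% of all tested genes. The median log2 fold change of the 48 was -0.06, with 31 below 0 and 17 above. Rhoa, which encodes the GTPase that drives stress fibres and myosin contraction, measured 587 ± 62.2 normalized CPM in MSNBA and 741 ± 90.5 in control (SD, n = 6 each), which edgeR put at -0.31 on the log2 scale (SE 0.13, unadjusted p = 0.0171, adjusted p = 0.401).

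By list, the median was -0.18 for 5 tested nucleation genes, among which Brk1, a subunit of the WAVE complex, had 0.27 (SE 0.15). It was -0.12 for 4 capping and severing genes, all of them below 0, with Dstn, a relative of cofilin, at -0.16 (SE 0.18). It was -0.23 for 7 integrin adhesion genes, with the integrin beta-1 gene Itgb1 at -0.23 (SE 0.15). Medians were 0.06 for 4 other crosslinkers, -0.04 for 5 myosins and their regulators and -0.16 for 3 septins and intermediate filament genes. The 14 tested microtubule genes had a median of -0.01, with 6 values above 0 and 8 below. Among them the alpha-tubulin gene Tuba1b had -0.17 (SE 0.19) and the beta-tubulin gene Tubb5 had -0.29 (SE 0.27). Of the serum response factor and YAP list, Wwtr1, which encodes the YAP relative TAZ, was tested alone, at 0.20 (SE 0.27).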

How the data were processed

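The authors deposited 1 table of raw counts per gene symbol for 12 libraries, whose name points to uniquely aligned RefSeq reads counted by molecular identifier. Per the submitters' processing notes, BWA 0.7.4.4 and mm10 were used; which counter, annotation and strand setting followed is not given in the sources used here, so reads of overlapping genes cannot be told apart. Groups came from the labels. With R 4.3.3 and edgeR 4.0.16, genes were filtered by filterByExpr, TMM factors were applied, and treatment was tested with the robust quasi-likelihood F test, adjusted by Benjamini-Hochberg over 2614 genes (79.2% of counts). Limma 3.58.1 (voom) and DESeq2 1.42.0 were alternatives, beside other scalings and filters, thinning to equal depth, depth as covariate, a replicate block and leaving out libraries. Normalized CPM are over tested genes with TMM factors; pooled, summed and full-total CPM are over full totals. Two-sided p-values were used throughout. Log2 standard errors are the fold change over the square root of F. Poisson and Wilson intervals (95%) and floors (3 counts) cover counting error only. The 35 genes and the other lists were chosen with earlier results of these data known. Every library's value was given for Actn4, members at an unadjusted p under 0.05, those with the largest changes, Actn1, Actb and Actg1; Tmsb10 was added after its values were seen. Of the other lists, genes at an unadjusted p under 0.05 and up to 2 with the highest counts were named, and Arpc5l and Arpc1a were added after their values were seen. Replicates of a group differed beyond counting noise in all 30 pairs. The median of 1 of the other lists is not reported here.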

Additional observations from a re-analysis of the deposited data

Results flagged for a closer look

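Among 72 sets of 6 values (27 genes and 9 family shares in each group), 6 held a library far from the other 5, where chance gives about 3.6. Tpm3 measured 276 normalized CPM in MSNBA 6, with the next MSNBA library at 374. MSNBA 4 was high for Cfl1 at 732 normalized CPM, with the next at 589, and for Capzb at 339, with the next at 253. Arpc2 measured 499 normalized CPM in control 3, with the next control at 389.98. Vim measured 99.3 normalized CPM in control 2, with the next control at 397. Myh9 held 90.9% of the counts of Myh9 and Myh10 in MSNBA 4, where Myh10 had 1 count.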

How the results depend on the processing

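Relative to the reported edgeR test (0 genes higher, 2 lower), the counts of all genes were 0 lower by DESeq2 (over 19572 genes or over the same 2614), limma-voom, thinning to equal depth and depth as covariate, 1 lower with a stricter filter, with no filter on counts 8 higher and 7 lower, and 4 higher without controls 2 and 4. Actn4 lost its call at -0.77 by DESeq2 over 19572 genes and -0.79 over the same 2614 (adjusted p = 0.0503, added after the data were seen), -0.78 by limma-voom, -0.64 without the filter, -0.79 with the stricter filter, -0.67 when thinned and -0.60 with depth; adjusted p over all alternatives ran from 0.00732 to 0.852. With 1 library left out it ran from -0.90 to -0.70, genes higher from 0 to 1, genes lower from 0 to 5, members lower at an unadjusted p under 0.05 from 2 to 6 (reported 4) and higher from 1 to 2 (reported 1). Without the filter the median of the members was -0.045, with 2 lower and 3 higher at an unadjusted p under 0.05, while the median of the 2614 genes moved to 0.14; all 27 members moved up by 0.14 to 0.16, and relative to that median 0 of 27 turned. Thinning gave 2 lower and 2 higher, depth as covariate 0 higher, and leaving out controls 2 and 4 gave 7 lower. Over all tested genes, 196 of 2614 reached an unadjusted p under 0.05 in either direction when thinned and 232 of 2614 with depth. The count was 281 of 3076 without controls 2 and 4, 1363 of 19576 without the filter and 234 of 2614 as reported. With 1 library left out it ran from 203 of 2768 (without control 3) to 312 of 2668 (without control 1).

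The sign held in all 23 alternatives for 17 of the 27 tested members, where a value was given (the stricter filter kept 19 members). With that common shift it turned without the filter for Actb (0.037), Flna (0.098), Tpm3 (0.0059), Cfl1 (0.049), Capza2 (0.13) and Rdx (0.038), by DESeq2 over 19572 genes for Capza2 (0.0053), and with depth for Tmsb4x (0.028), Tmsb10 (0.21) and Tln1 (-0.024). Without controls 2 and 4 it turned for Myl6 (-0.0083), Tmsb4x (0.053), Tmsb10 (0.025) and Tln1 (-0.12). These controls held the highest thymosin values, so a rise of both thymosin estimates was fixed by that choice. With 1 library left out Flna ran from -0.14 to 0.093, Capza2 from -0.17 to 0.13 and Tln1 from -0.063 to 0.12. Correlations of equal replicate numbers passed 0.1 in 2 of 6 pairs (-0.14 to 0.37), so the numbers were not taken as pairs; with a replicate block Tln1 was -0.0059 and Actn4 -0.78 (adjusted p = 0.0312). The causes were not tested. At this depth a member with few counts had wide intervals, such as Flna.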

Other observations

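With the group means removed, the tested genes whose log2 CPM followed Actn4 most closely over the 12 libraries were Nudt5 (Pearson r = 0.86), Pfkl (0.84), Tle5 (0.82), Sod3 (0.81) and Plin5 (0.80). Of the cytoskeleton lists, Fermt2 (0.74) and Lmna (0.71) stood among the first 25, named after their values were seen. These values are a description over libraries that differ in depth, taken as the highest among all tested genes.

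Over the 27 tested members, the lowest value fell in control 2 for 8 genes and in control 3 for 4, while the highest value fell in control 3 for 6 genes and in control 5 for 5. The highest value of a member fell in an MSNBA library for 5 of 27 genes. The lowest value fell in control replicates 1 to 6 for 0, 8, 4, 3, 1 and 0 genes. In MSNBA replicates 1 to 6 it fell for 2, 0, 1, 2, 3 and 3 genes. These counts were not set against all tested genes. Controls 2 to 5 had fewer total counts than every other library, from 59113 to 83983, and the part of counting error was not tested. The members together took 1.13% of all counts in MSNBA and 1.17% in control.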
